A study of Mus musculus with 12 samples.

Results

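The neuregulin and ErbB receptor genes studied here were the neuregulins Nrg1, Nrg2 and Nrg4, the growth factor genes Hbegf and Btc, the receptor genes Egfr, Erbb2, Erbb3 and Erbb4, and the receptor inhibitor gene Errfi1. Their probes were found by symbol in the annotation of the array platform, by a rule that uses no measured value, although earlier results of these data were known when the genes were chosen. All 10 genes were found, each with 1 probe, among 26423 probes and 17742 named genes. With 1 probe per gene, no second probe could be set beside any of these values.

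Neuregulins are growth factors with an EGF-like domain that bind the receptor tyrosine kinases Erbb3 and Erbb4. Erbb2 binds no known ligand and acts as the partner of the other receptors, whereas Erbb3 has little kinase activity of its own and signals through its partner. In the heart, Nrg1 comes mainly from endothelial and endocardial cells and acts on heart muscle cells through Erbb4 and Erbb2, a route needed for trabeculation and known to support division of heart muscle cells around birth. Egfr responds to ligands such as Hbegf and Btc, which also bind Erbb4, and Errfi1 (Mig6) binds activated receptors and blocks their kinase domains.

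RNA came from whole hearts of mice on a C57bl/6 X 129 hybrid background at postnatal day 8. The 2 groups were Salvador mutants, labelled Salv CKO, and wild-type animals, labelled Control, with 2 biological samples per group and 3 technical arrays per sample, 12 arrays in all. The series asked which genes the Hippo pathway controls in the growing heart, Salvador (Sav1) being the scaffold of its kinases. The sources used here do not give the promoter driving recombination, the deleted part of Sav1 or whether a sample was 1 heart or a pool. Since nothing in the labels says that the samples came from separate litters or animals, the p-values cover only the spread among these 4 samples, part of which may be technical. The source label names embryonic tissue, against the stage label of day 8 used here.

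The probe of Sav1 did not follow the labels. Control 1 had its highest level, 8.75, and Salv CKO 1 its lowest, 8.06, but Salv CKO 2 (8.52) lay above Control 2 (8.08), so that every direction given for Salv CKO is a direction of the labels. Levels are log2(quantile-normalized intensity + 1), where intensity is probe brightness on a linear scale, and differences are Salv CKO minus Control on this scale, which understates the change of dim probes. Array medians of the deposited intensity ran from 58 to 88. All 5 measured heart muscle markers were bright, among them Actc1 at levels of at least 15.35. No probe passed an adjusted p of 0.05 in limma (0 of 26423, background 0%), and 3.97% of probes had an unadjusted p under 0.05.

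Promoter sequences are shown for the receptor genes Egfr and Erbb4, whose groups did not overlap, and for Erbb2 and Errfi1, whose windows hold the core of the binding site of TEAD factors, through which the Hippo co-activators act. Each is the 250 bases before a transcript start in RefSeq (build GRCm38.p6), read 5′ to 3′ along the gene, with capitals at matches to that core, GGAATG, on either strand.
Egfr, chr11:16751953-16752202, plus strand: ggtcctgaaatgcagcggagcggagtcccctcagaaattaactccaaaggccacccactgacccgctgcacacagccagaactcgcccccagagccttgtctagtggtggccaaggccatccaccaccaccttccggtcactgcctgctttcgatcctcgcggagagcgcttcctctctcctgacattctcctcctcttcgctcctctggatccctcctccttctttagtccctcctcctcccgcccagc
Erbb4, chr1:69108060-69108309, minus strand: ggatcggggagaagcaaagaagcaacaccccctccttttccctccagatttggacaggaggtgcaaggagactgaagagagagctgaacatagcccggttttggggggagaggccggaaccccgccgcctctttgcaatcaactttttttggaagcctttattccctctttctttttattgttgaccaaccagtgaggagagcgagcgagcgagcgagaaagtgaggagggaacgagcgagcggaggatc
Erbb2, chr11:98412234-98412483, plus strand: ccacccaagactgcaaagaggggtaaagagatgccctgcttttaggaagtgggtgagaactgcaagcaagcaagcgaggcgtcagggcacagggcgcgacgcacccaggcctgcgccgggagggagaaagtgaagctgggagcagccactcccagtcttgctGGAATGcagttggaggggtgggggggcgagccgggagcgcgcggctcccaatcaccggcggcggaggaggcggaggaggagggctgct
Errfi1, chr4:150853546-150853795, plus strand: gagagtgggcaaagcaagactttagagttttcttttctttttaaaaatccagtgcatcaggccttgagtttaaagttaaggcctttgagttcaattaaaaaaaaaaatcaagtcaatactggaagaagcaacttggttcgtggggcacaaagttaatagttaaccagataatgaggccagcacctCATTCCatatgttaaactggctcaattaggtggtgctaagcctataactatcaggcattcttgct
The core lay 88 bases before the start in Erbb2 and, on the opposite strand, 65 bases before it in Errfi1. It occurred in 12.6% of the 32851 promoter windows of this length. The 7 windows read for 6 of the genes, Nrg4, Egfr, Erbb2, Erbb4, Btc and Errfi1 (which has 2), held no other match and none to the AP-1 site TGANTCA, which 6.7% of all windows hold. The second Errfi1 window starts at chr4:150854820 and has neither motif. No window was read for Nrg1, Nrg2, Erbb3 or Hbegf, so the scan covers only part of the genes. A match describes these letters only.

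**Figure D1:**
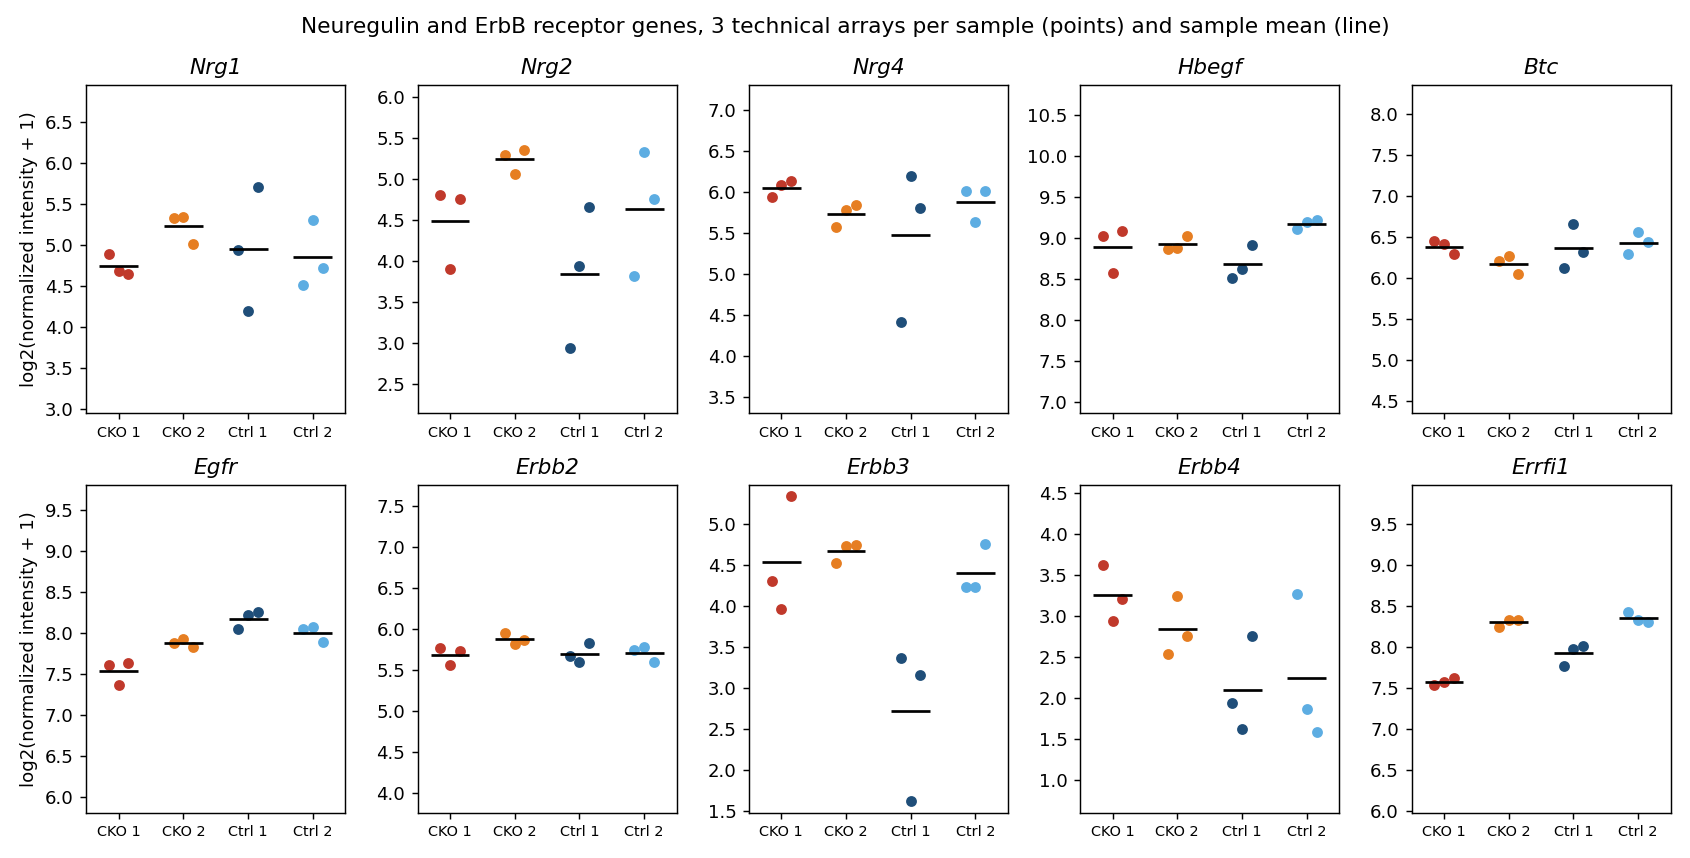
Level of each gene, log2(normalized intensity + 1), in the 3 technical arrays (points) of each of the 4 samples, with the sample mean (line). Every panel spans 4 log2 units but starts at its own level, since levels of different probes cannot be compared. The arrays of Errfi1 and Egfr lie close together within a sample, and those of Erbb3, Erbb4 and Nrg2 are spread widely.

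None of the 5 ligand genes differed between the groups beyond the spread of the samples. Nrg1 stood at a level of 4.74 in Salv CKO 1 and 5.23 in Salv CKO 2, and at 4.95 and 4.85 in Control 1 and 2. Both the lowest and the highest sample were thus labelled Salv CKO. The difference was 0.086 ± 0.26 (SE, n = 2 samples per group, limma adjusted p = 1.00), with a 95% interval from -0.60 to 0.78. The probe was dim, with deposited intensities of 14 to 44 over the 12 arrays, and the technical arrays of Control 1 had an SD of 0.75, more than the range of 0.49 between samples. Endothelial and endocardial markers, the usual source of Nrg1, were all measured (8 of 8). Their summed normalized intensity was 16509 and 20088 in Salv CKO 1 and 2 and 20366 and 18236 in Control 1 and 2. Both the sum and Nrg1 were lowest in Salv CKO 1, but the sum was highest in Control 1 and Nrg1 in Salv CKO 2. Tek, Tie1, Npr3 and Vwf were lowest in Salv CKO 1, Pecam1 and Emcn in Control 1, and Cdh5 and Kdr in Control 2. In whole hearts, fewer cells of a type and less RNA per cell cannot be told apart, and the part of cell numbers in these values was not tested.

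Nrg2, a neuregulin best known from the nervous system, had levels of 4.49 and 5.24 under the label Salv CKO and of 3.85 and 4.64 in the controls. The groups overlapped, since Control 2 lay above Salv CKO 1. The difference of 0.62 ± 0.41 (SE, limma adjusted p = 0.998) was 0.23 without Control 1 and 0.25 without Salv CKO 2. With a pseudocount of 16 in place of 1 it was 0.35. Deposited intensities of Nrg2 ran from 7 to 50, and 3 of its 4 samples had a technical SD of at least 0.50.

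Nrg4, a ligand of Erbb4 made by brown fat, stood at 6.05 and 5.73 under the label Salv CKO and at 5.47 and 5.88 in the controls. These groups overlapped too, and the difference was 0.21 ± 0.27 (SE, limma adjusted p = 0.998). The low value of Control 1 rested on 1 of its arrays, at a level of 4.42 against 6.19 and 5.81 on the others. With the median of the technical arrays the difference in Nrg4 was 0.026, and without Control 1 it was 0.0090. Adipocyte markers were lower in the samples labelled Salv CKO in 7 of 8 measured genes, none of which passed the threshold in limma, with a median difference of -0.99. Ucp1, the uncoupling protein of brown fat, was lowest in Salv CKO 2 (9.75) and highest in Control 1 (12.71). The lowest sample for Nrg4 was Control 1 by the mean of the technical arrays and Salv CKO 2 by their median (5.78 against 5.81). The part of fat tissue in the Nrg4 values was not tested.

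Hbegf, the heparin-binding ligand of Egfr and Erbb4, was clearly above background, with deposited intensities of 359 to 659. The samples labelled Salv CKO, at 8.89 and 8.92, lay between the controls at 8.69 and 9.18. The difference of -0.022 ± 0.26 (SE, limma adjusted p = 1.00) had a 95% interval from -0.71 to 0.67, which corresponds to 0.61 to 1.59 times the control level. Its sign turned with the processing (0.041 with the median of technical arrays and 0.039 without normalization).

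Btc, the betacellulin gene, varied little. The samples labelled Salv CKO had levels of 6.39 and 6.18, and the controls of 6.37 and 6.43. The range over the 4 samples, 0.26, was 2.10 times the median technical SD of 0.12, and the difference was -0.12 ± 0.22 (SE, limma adjusted p = 0.998). It was 0.063 when arrays were not normalized. Both Btc and Nrg4 were higher in Control 2 and Salv CKO 1 than in the other 2 samples. For Btc, however, Salv CKO 1 and Control 1 lay closer together than the technical SD of Control 1, 0.27. The sum of the lung and airway markers showed this split far more strongly. Their summed normalized intensity was 2251 in Salv CKO 1 and 5558 in Control 2 against 73 and 72 in Salv CKO 2 and Control 1 (6 of 6 markers measured). Scgb3a2, an airway secretory gene, stood at 10.61 and 11.55 in the first pair of samples against 3.29 and 4.02. Sftpa1, a dim marker, did not share the split, at 2.56 in Salv CKO 1 and 2.85 in Salv CKO 2. The part of such tissue in the levels of Btc and Nrg4 was not tested.

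**Figure D2:**
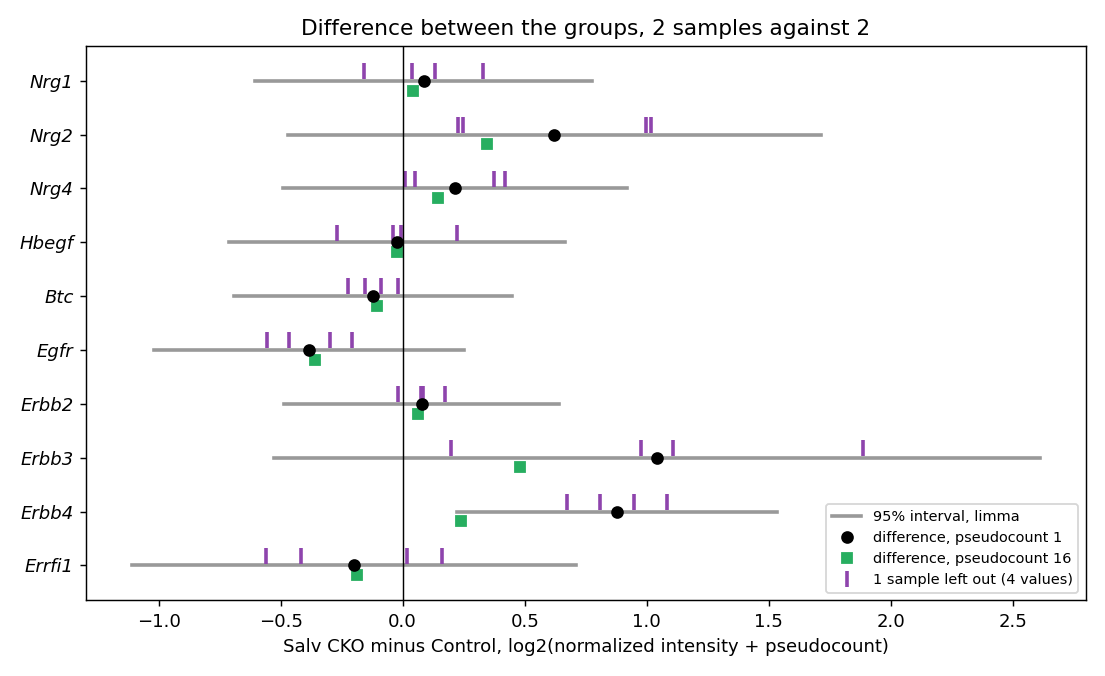
Difference between the samples labelled Salv CKO and Control for each gene (black point), with its 95% interval from limma (grey), the value at a pseudocount of 16 (green square) and the 4 values with 1 sample left out (purple ticks). Every interval but that of Erbb4 includes 0, and the Erbb4 value moves from 0.88 to 0.24 with the larger pseudocount.

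Among the 4 receptor genes, 3 had groups that did not overlap, Egfr on the lower side and Erbb3 and Erbb4 on the higher side. These were the only such genes among the 10, a share of 30% that is near the 30.6% of all probes without overlap (14.8% higher and 15.8% lower in Salv CKO). None passed the threshold in limma, and 1, Erbb4, had an unadjusted p under 0.05.

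Egfr, the epidermal growth factor receptor, was the receptor probe with the tightest arrays among those without overlap. The levels were 7.54 and 7.88 under the label Salv CKO (samples 1 and 2) and 8.18 and 8.01 under the label Control. Both samples labelled Salv CKO were lower, although the highest of their arrays, 7.93, exceeded the lowest control array, 7.90. Without normalization the Egfr groups overlapped, since the mean deposited intensity was 274 in Salv CKO 2 and 239 in Control 2. The difference was -0.38 ± 0.24 (SE, n = 2 per group, limma adjusted p = 0.998), or 0.77 times the control level with a 95% interval from 0.49 to 1.19. The technical SD was at most 0.15 in any sample, against 0.64 between the lowest and highest sample. With 1 sample left out, the difference ran from -0.56 without Salv CKO 2 to -0.21 without Salv CKO 1. Wt1, a gene of the epicardium, had the same order of samples, at 8.83 and 9.25 in Salv CKO 1 and 2 and 9.74 and 9.36 in Control 1 and 2. Upk1b shared this order, but Upk3b, Msln, Lrrn4 and Tbx18 did not. Tbx18 was higher under the label Salv CKO without overlap (8.54 and 8.58 against 8.49 and 8.19), while its dimmer probe overlapped. The 6 epicardial and mesothelial markers summed to 3595 and 4660 in Salv CKO 1 and 2 and to 4570 and 4114 in Control 1 and 2, and 4 of the 6 had a negative difference. Their part in the Egfr levels was not tested.

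Erbb2, the shared partner receptor, varied least of the 10 genes. The controls stood at 5.70 and 5.71 and the samples labelled Salv CKO at 5.69 and 5.88, a range of 0.19 against a median technical SD of 0.10. The difference was 0.078 ± 0.21 (SE, limma adjusted p = 0.998). The 95% interval, from -0.48 to 0.64, leaves room for a level between 0.71 and 1.56 times that of the controls. Deposited intensities ran from 40 to 71. Without Salv CKO 2, the highest sample, the Erbb2 difference was -0.017.

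Erbb3, the neuregulin receptor of Schwann cells and of the valve mesenchyme, stood at 4.54 and 4.67 under the label Salv CKO and at 2.72 and 4.41 in Control 1 and 2. Control 1 alone stood apart, with deposited intensities of 10, 2 and 7 against 13 to 38 on the other 9 arrays. The difference of 1.04 ± 0.59 (SE, limma adjusted p = 0.998) was 0.20 without Control 1, 1.89 without Control 2, and 0.48 with a pseudocount of 16. Within Control 1 the technical SD of Erbb3 was 0.95. Of 7 Schwann cell markers, 5 were measured, and they did not share an order of samples. Sox10, a transcription factor of Schwann cells, was lowest in Control 1 (6.67), close to Salv CKO 2 (6.74). Its other, dimmer probe was lowest in Salv CKO 1 (5.54) and stood at 6.00 in Control 1. Cdh19 stood at 2.23 in Control 1 against 3.36 to 4.62 in the other samples. Pmp22, the brightest of these markers, was also lowest in Control 1, at 12.52 against 12.69 to 12.82. Foxd3 was lowest in Salv CKO 1 (2.23). S100b was higher in the controls, at 5.13 and 5.22 under the label Salv CKO and 6.17 and 5.65 in the controls. The part of these cells in the Erbb3 values was not tested.

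Erbb4, the neuregulin receptor of heart muscle cells, had the smallest unadjusted p of the 10 genes, but its probe was close to background. The samples labelled Salv CKO stood at 3.26 and 2.85, and the controls at 2.11 and 2.24. Deposited intensities were 12, 8 and 8 and 5, 8 and 7 on the arrays of Salv CKO 1 and 2, against 3, 2 and 5 and 8, 2 and 2 in Control 1 and 2. The sample means did not overlap, whereas the single arrays did, through the first array of Control 2 at a level of 3.27. The difference was 0.88 ± 0.25 (SE, n = 2 per group, limma unadjusted p = 0.0192, adjusted p = 0.998), and 395 probes of the array had a smaller p. As a ratio on the scale of intensity + 1, this was 1.84, with a 95% interval from 1.17 to 2.90. With 1 sample left out, the Erbb4 difference ran from 0.67 to 1.08. A pseudocount of 16 reduced it to 0.24, and a filter on the dimmest 25% of probes removed the probe.

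Errfi1, the inhibitor, was the gene whose samples were most clearly separated, but not by label. Its levels were 7.58 in Salv CKO 1, 7.92 in Control 1, 8.30 in Salv CKO 2 and 8.36 in Control 2. Both samples numbered 1 thus lay below both numbered 2, and what the numbers mark is not in the labels. The array numbers in the titles are also lower for both samples numbered 1 than for both numbered 2. The range of 0.78 was 14.4 times the median technical SD of 0.054, so the samples differed well beyond the spread of technical arrays within a sample. That spread does not cover a difference between lower and higher array numbers. Because a low and a high sample carried each label, the groups differed by -0.20 ± 0.35 (SE, limma adjusted p = 0.998). Leaving out Salv CKO 1 turned it to 0.16, and leaving out Control 2 to 0.017. The corresponding range was 6.26 technical SDs in Egfr and 1.63 in Nrg1, the smallest of the 10 genes.

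**Figure D3:**
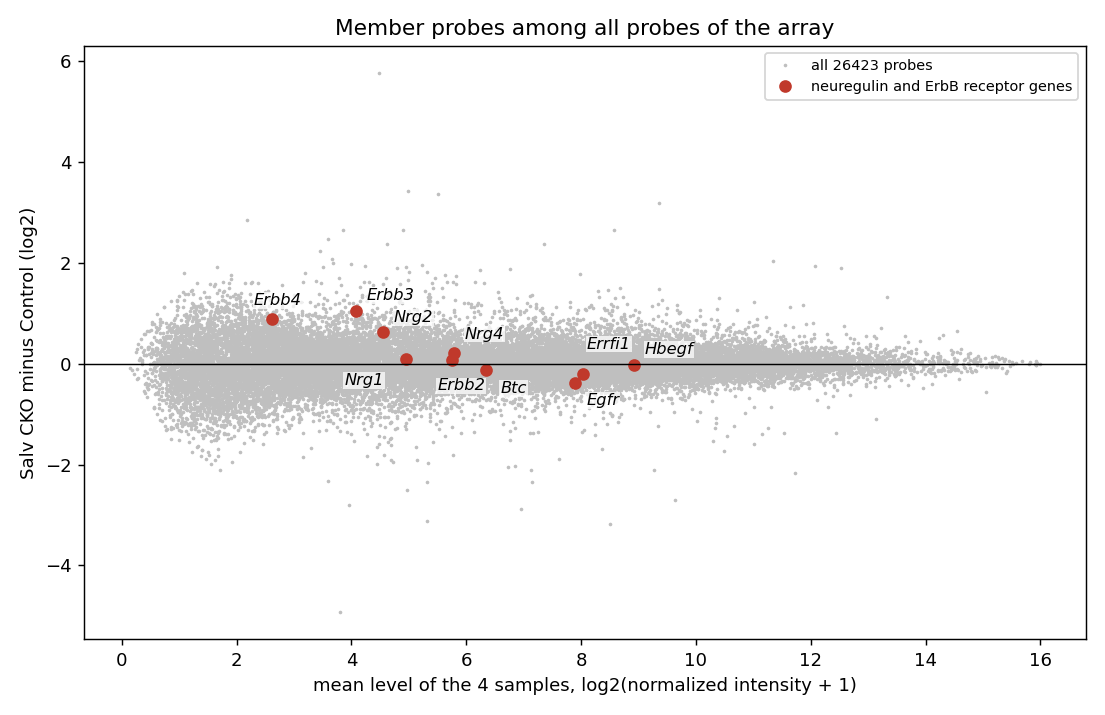
Difference against the mean level for all 26423 probes (grey) and for the 10 genes (red). The 10 genes lie within the cloud of probes at their level, and Erbb4 and Erbb3, at the dim end, where the cloud is widest.

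Over the 10 genes, 6 had a positive and 4 a negative difference, with a median of 0.082, against a median of -0.021 over all named genes. Without Salv CKO 2, 4 of the 10 were positive with a median of -0.017, and without Control 2, 8 were positive with a median of 0.15. Control 1 was the lowest sample in 5 of them and Salv CKO 1 in 4, while Control 2 was lowest in 0. Over all named genes these shares were 27.4%, 29.3% and 24.9%. When arrays were not normalized to each other, the median difference of all probes moved to 0.11, and 8 of the 10 genes were positive.

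The rest of the ErbB pathway was followed in 5 lists, and 59 of 70 genes had a named probe. None passed the threshold in limma (adjusted p at least 0.998), and 0 had an unadjusted p under 0.05. The groups did not overlap in 13 of the 59, or 22%, against 30.6% of all probes. The other ligand genes had 3 of 5 positive differences and a median of 0.049. Egf was even across the hearts, at 8.80 and 8.93 under the label Salv CKO and 8.72 and 8.91 in the controls.

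Genes of ligand processing had 2 of 8 positive differences, with a median of -0.076. Adam17, the main sheddase of Egfr ligands, differed by -0.24 ± 0.23 (SE), and Adam19, which cleaves neuregulins, by -0.44 ± 0.24. Adam19 stood at 10.23 and 10.04 in the controls, above 9.53 and 9.85 in Salv CKO. Adam12, which can release Hbegf, differed by 0.60 ± 0.30 (7.47 and 7.58 in Salv CKO, 6.59 and 7.26 in Control).

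Adaptors and effectors had 7 of 24 positive differences, with a median of -0.048. Of these 24 genes, 14 were highest in Control 1 (58.3%, against 38.2% of all named genes) and 11 were lowest in Salv CKO 1. The count of positive differences was 17 without Control 1 and 14 without Salv CKO 1, so the direction of this list rested on single samples. The ERK1 kinase gene Mapk3 differed by 0.30 ± 0.22 (SE), Stat5b by -0.32 ± 0.24 and the PI3-kinase subunit gene Pik3cb by -0.30 ± 0.23. Plcg1 differed by 1.27 ± 0.72, but at levels of 1.04 to 3.42 it was near background.

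Brakes of the receptors had 9 of 13 positive differences and a median of 0.13, which was 0.009 without Control 1 (7 positive) and 0.05 without Control 2. Lrig1, a membrane protein that promotes degradation of ErbB receptors, had the smallest unadjusted p of the 59 genes (0.0531, limma adjusted p = 0.998). Both samples labelled Salv CKO, at 10.67 and 10.82, were above the controls at 10.06 and 10.28, a difference of 0.58 ± 0.22 (SE). Rnf41 (Nrdp1), a ubiquitin ligase for Erbb3, differed by -0.41 ± 0.22. Its other probe, whose groups overlapped, differed by -0.81 ± 0.66. Usp8, a deubiquitinase that stabilizes Rnf41, differed by 0.54 ± 0.37 and Spred1, an inhibitor of the Ras pathway, by 0.29 ± 0.25. Socs5, named after its values were seen, stood at 2.76 in Salv CKO 1 against 8.10 to 8.68 elsewhere, with a technical SD of 4.57 among the arrays of that sample.

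Genes induced by ERK signalling had 5 of 9 positive differences and a median of 0.079. Ier2, whose groups did not overlap, differed by -0.11 ± 0.21 (SE), and its other probe by 0.45. Egr1, an immediate early gene, stood at 12.58 in Control 1, 13.41 in Control 2 and 13.28 and 13.17 in Salv CKO 1 and 2, so that its groups overlapped.

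**Figure D4:**
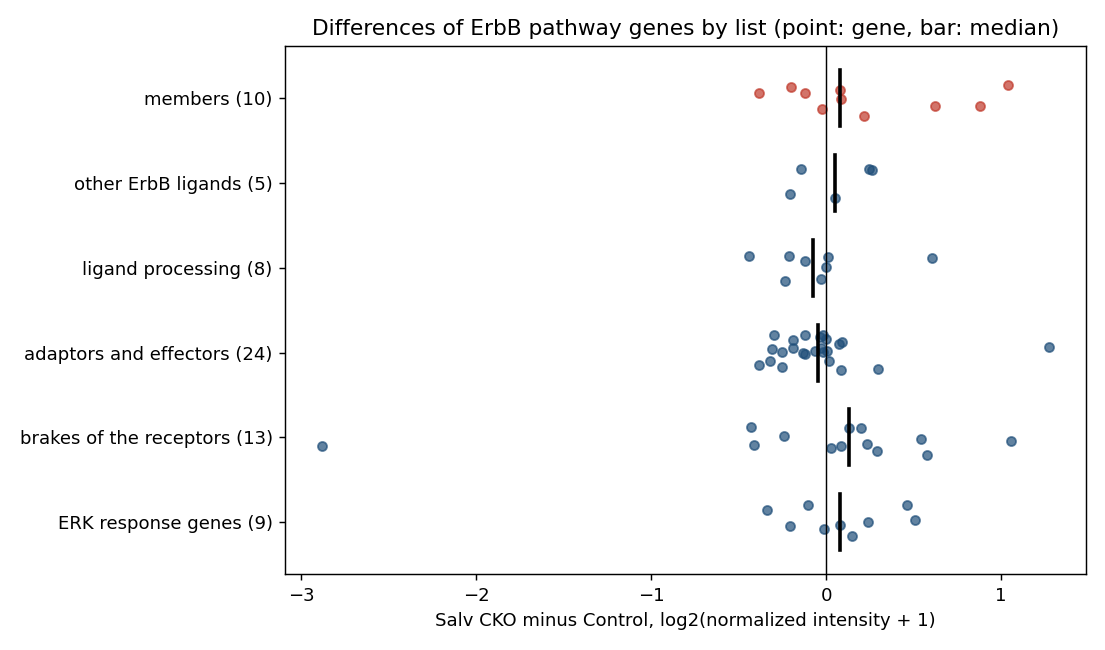
Difference of each gene (point) in the 10 neuregulin and ErbB genes (red, called members) and the 5 other pathway lists (blue), with the median of each list (bar) and the number of measured genes in brackets. Medians lie between -0.076 and 0.13, and the point at -2.88 is Socs5.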

How the data were processed

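Whole-heart RNA was hybridised as Cy5-labelled amplified RNA to single-colour arrays, per the labels' protocols. The deposited values are intensities, whole numbers from -10 to 65474, and since some lie below 0, a background had been taken off. The sources used here do not name the authors' scanner, background method or normalization. The 12 arrays were quantile normalized, values below 0 were set to 0.0833, log2(value + 1) was taken and each sample's 3 technical arrays were averaged. Groups were compared with limma 3.58.1 (R 4.3.3; lmFit and eBayes, 2 against 2 samples, two-sided, Benjamini-Hochberg over 26423 probes, threshold 0.05). The number of samples limits the precision. Of the probes, 20377 had 1 symbol, 0 several and 6046 none. Symbols were updated through RefSeq (GRCm38.p6), which held 18213 of them as symbols and 2126 as a synonym of a single gene, and 38 kept the platform's name. A gene outside the 10 is given by its brightest probe.

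The 10 genes and all lists were chosen with earlier results of these data known. Named were the 10 genes, Sav1, up to 4 genes per pathway list with the smallest p and no overlap, and up to 2 markers per list by range and by level. Further endothelial, Schwann cell, lung and epicardial markers were named after their values were seen. The lists were other ligands, ligand processing, adaptors and effectors, brakes of the receptors, ERK response genes and markers of 10 tissues or cell types. The other ligands, which had no gene without overlap, are given by Egf, and the ERK genes also by Egr1, both chosen after their values were seen. Marker lists not described beside a gene had median differences of -0.066 (heart muscle), 0.021 (fibroblast), -0.0090 (thymus and T cell), -0.014 (macrophage) and -0.99 (smooth muscle). The smooth muscle value rests on 4 measured markers. Tagln, Lmod1 and Cnn1 were lower under the label Salv CKO, at dim levels of at most 5.68. The bright Acta2 probe differed by 0.092, and its dimmer probe by -2.80. The fit was tested on simulated data, in 3 runs with changes added to some probes. It called 2 of 201 probes changed by 1 log2 unit, 148 of 201 changed by 2 and 193 of 198 changed by 4. Among unchanged probes it called 25 of 78669. That no probe passed in the data therefore says little about changes of 1 log2 unit. Alternatives were median centring, no normalization, a replicate block, medians over technical arrays, a pseudocount of 16, a filter on dim probes, the 12 arrays with a random block per sample, each sample left out, and the mean over probes. Figures used matplotlib 3.10.9.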

Additional observations from a re-analysis of the deposited data

How the results depend on the processing

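None of the 10 genes passed the threshold in any setting (smallest limma adjusted p 0.418, for Erbb3 without Control 2). The blocks and the dim-probe filter leave a difference as it is by construction. Of 40 differences from the 4 settings with all samples that can move it, 37 kept their sign. The exceptions were Hbegf (0.041 with the median of technical arrays, 0.039 without normalization) and Btc (0.063 without normalization). Of 40 with 1 sample left out, 35 kept it. The reversals lay in ranges of -0.16 to 0.33 for Nrg1, -0.017 to 0.17 for Erbb2, -0.27 to 0.22 for Hbegf and -0.56 to 0.16 for Errfi1. The cause was not tested. The count of 0 probes passing became 2 with median centring, 14 without normalization and 61 in a fit of all 12 arrays with a random block per sample. That last fit counts technical arrays in its degrees of freedom, under a single correlation for all probes. Its count therefore cannot be read like those from sample means.

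Positive differences in the lists moved most for adaptors and effectors (7, then 3 with median centring and 4 to 17 with 1 sample left out) and other ligands (3, then 5 without normalization and 0 to 4). Ligand processing moved from 2 to 1 with median centring and ran from 2 to 4, and ERK response genes from 2 to 5 of 9. With 1 sample left out, list medians ran from -0.12 to 0.15 (other ligands), -0.17 to -0.022 (ligand processing), -0.25 to 0.11 (adaptors and effectors), 0.0090 to 0.22 (brakes) and -0.11 to 0.11 (ERK response genes), and median centring gave the brakes 0.050.

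With the sample number as a replicate block, 0 probes passed, and 743 in place of 1048 had an unadjusted p under 0.05 in limma. Deviations of same-numbered samples correlated at -0.25 over all probes. With so few samples, this value cannot decide whether the numbers pair the samples. With the crossed pairing, chosen after seeing the data, 0 probes passed and 1545 had an unadjusted p under 0.05. Signal over background limits Erbb4, Erbb3, Nrg2 and Nrg1 most.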
